A study of Mus musculus with 6 samples.

Results

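Nuclear pore and nuclear transport genes were taken as the rows of a mouse RNA-seq count table whose symbol names a nucleoporin (Nup followed by a digit or l), a numbered importin, an exportin, a karyopherin alpha or beta, or a transportin. The rule used symbols alone and found 47 of 24421 gene entries: 24 nucleoporin entries and 23 nuclear transport receptors. Bone marrow of B6 mice, in which no mutation is named for either group, was the source of the cells: sorted monocytes, the phagocytes that leave marrow for blood and tissue. The GM-CSF group (3 libraries) received 5 ng of granulocyte-macrophage colony-stimulating factor, with no volume stated, for 3 h. The control group (3 libraries) had none. The control cells are described in one place as freshly isolated and in another as part of a 3 h incubation in medium with or without cytokine, so time in culture and GM-CSF cannot be told apart if the control cells were not cultured. Whether the replicates were separate animals or cultures is not stated; the p-values therefore reflect only how these libraries vary, which may be technical variation.

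Libraries held 16643228 to 25232956 reads in genes, at which the limit that a count of 0 allows, 3 reads, equals 0.119 to 0.180 counts per 1000000 reads in genes (CPM); such limits cover counting error only. All 10 monocyte markers were read; Csf1r was at 1642 ± 39.6 CPM in GM-CSF and 1450.2 ± 132 CPM in control libraries (SD, n = 3 each). Their sum was 28511 to 30869 CPM in GM-CSF and 60049 to 69004 CPM in control libraries, most of it Lyz2, with 5 of 10 lower (Cx3cr1, Ccr2, Lyz2, Fcgr1 and Ly6c2) and Cd14 and Spi1 higher. Markers of neutrophils and their precursors summed to 10827 to 13648 CPM in GM-CSF and 16014 to 21127 CPM in control libraries, with all 9 listed genes in the table detected, 5 of 9 lower and Ctsg higher; Elane and Mpo were not past the threshold. The 10 cell cycle genes summed to 1752 to 1972 CPM in GM-CSF and 2264 to 2634 CPM in control libraries, and 7 of 10 fell. Of 5 progenitor markers, Gata2 and Cd34 were higher, Gata2 at 10.7 ± 3.21 CPM in GM-CSF and 0.487 ± 0.266 CPM in control libraries, while Flt3 and Kit were lower; the 5 summed to 38.5 to 41.5 CPM in GM-CSF and 35.2 to 46.0 CPM in control libraries. B cell markers summed to 34.2 to 42.9 CPM in GM-CSF and 60.0 to 70.5 CPM in control libraries, with Cd79b lower, 4 haemoglobin genes were at 0 in every library, and of the T and NK cell markers none but Nkg7 reached 1 CPM on average. The part of these differences in the results below was not tested. Pairs of GM-CSF libraries correlated at 0.985 to 0.993 and control pairs at 0.994 (Pearson's r of log2 CPM over tested genes, a description, as genes are not independent), with GM-CSF replicate 3 in both of the lowest GM-CSF pairs.

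The nuclear pore complex is a large channel through the nuclear envelope, built from many copies of nucleoporins arranged as stacked rings. Scaffold nucleoporins form the outer and inner rings, others anchor the pore in the membrane, and nucleoporins rich in phenylalanine-glycine (FG) repeats fill the channel and bind transport receptors. Those receptors, the karyopherins, recognise import or export signals on cargo and are loaded or unloaded by the small GTPase Ran, whose GTP form is kept high in the nucleus. Cytokine-activated transcription factors such as STAT and NF-kB proteins enter the monocyte nucleus by this route, and ribosomal subunits, tRNA and mRNA leave through it.

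GM-CSF libraries had higher transcript levels for most of the pore and transport genes, by modest amounts, and for none was the level lower past the test. Of 44 members that passed the filter on low counts, 32 rose, 0 fell and 12 did not pass the threshold (edgeR quasi-likelihood test, Benjamini-Hochberg adjusted p under 0.05 over all tested genes), a share of 72.7% higher. Among all 11731 tested genes 32.8% rose, 31.2% fell and 64% changed either way. The median log2 fold change of the 44 members was 0.47, beside 0.01 over all tested genes, and 42 of 44 estimates were above 0. At an unadjusted p under 0.05 no member was lower either, nor with DESeq2 or limma-voom. Most rises were small: 17 of the 32 were under 1.5-fold, beside 2452 of the 7511 calls in either direction over all tested genes. Of the 44 tested members, 4 were called and at least 2-fold (Ipo4, Kpna1, Nup62 and Xpo4). Among all 11731 tested genes, 2876 (24.5%) were called and at least 2-fold in either direction. GM-CSF and control libraries did not overlap in CPM for 34 of 44 members (77.3%), beside 69.5% of all tested genes, in either direction. The 34 include Nup210l, whose GM-CSF libraries lay narrowly below the controls, at a low level and not past the threshold. In bulk RNA, fewer cells of a type and less RNA per cell cannot be told apart, and a level here is a share of each library's gene reads.

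The whole set summed to 3327 ± 176 CPM in GM-CSF libraries and 2382 ± 90.6 CPM in control libraries (SD, n = 3 each). Nucleoporins (17 of 22 tested higher, median log2 fold change 0.50) and karyopherins (15 of 22 higher, median 0.44) gave similar counts, and the difference between them was not tested. With upper quartile scaling the median of all genes moved to -0.11 and 24 of the 32 kept their call; Ipo7, Kpna2, Kpnb1, Nup37, Nup85, Nup205, Nup214 and Tnpo1 were then not past the threshold. Relative to the median of all genes, the members stood at 0.46 on the log2 scale under both scalings.

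**Figure D1:**
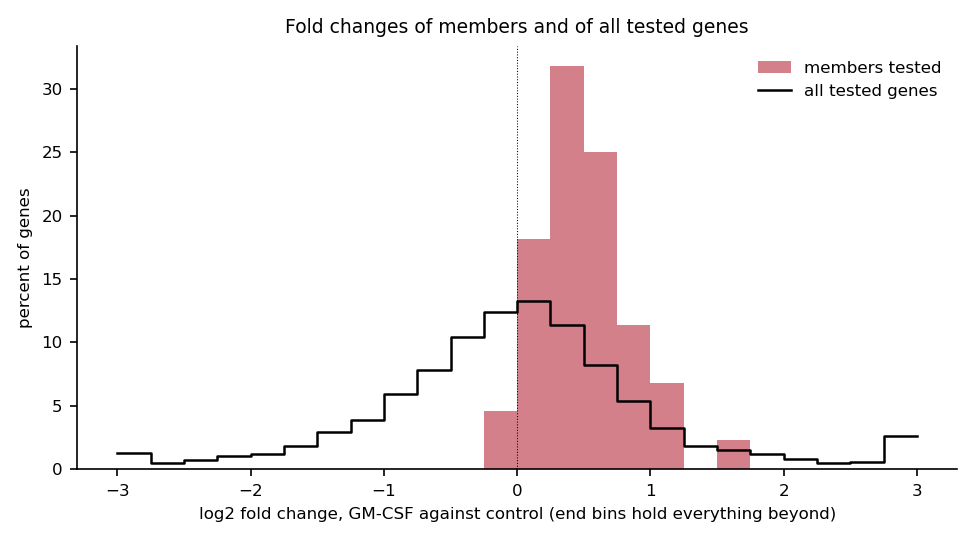
Log2 fold changes of GM-CSF against control (x axis, bins of 0.25, the end bins holding everything beyond) as a percent of genes (y axis), for the 44 tested members (filled bars) and all 11731 tested genes (line). The members' bars lie mostly between 0 and 1.25, while the line is centred near 0 and spreads to both sides.

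Since many members rose together, the sequence at their start sites was compared. RefSeq windows on GRCm38.p6, from 250 bases before to 50 after the annotated start, were given for 35 of the 44 tested members. 4 motifs were searched on both strands, chosen after the values were seen: CACGTG, the E-box bound by MYC-family factors; the 10-base palindrome bound by NRF1, which can be read in capitals in the Nup62 window; TTCNNNGAA, the core bound by STAT factors; and CCGGAAGT, bound by ETS factors. No pair of these motifs contains the other. Shown are the windows of Ipo4 and Nup62, the rises of over 2-fold that have a window, of Nup54, a second central channel gene, and of Nup107, a scaffold gene that did not pass the threshold. Each reads 5′ to 3′ along the gene's strand, with motif matches in capitals.
Ipo4: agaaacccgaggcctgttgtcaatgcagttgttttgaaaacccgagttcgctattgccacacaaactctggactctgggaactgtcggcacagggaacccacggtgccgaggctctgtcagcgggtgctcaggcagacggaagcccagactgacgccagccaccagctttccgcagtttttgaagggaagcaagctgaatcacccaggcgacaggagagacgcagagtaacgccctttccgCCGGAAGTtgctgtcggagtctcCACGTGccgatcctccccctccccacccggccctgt
Nup62: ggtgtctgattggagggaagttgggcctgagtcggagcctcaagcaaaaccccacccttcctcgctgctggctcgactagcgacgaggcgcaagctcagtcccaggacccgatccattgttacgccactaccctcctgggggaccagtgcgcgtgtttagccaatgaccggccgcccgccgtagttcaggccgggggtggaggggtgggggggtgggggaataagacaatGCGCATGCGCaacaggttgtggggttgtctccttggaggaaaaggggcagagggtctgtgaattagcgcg
Nup54: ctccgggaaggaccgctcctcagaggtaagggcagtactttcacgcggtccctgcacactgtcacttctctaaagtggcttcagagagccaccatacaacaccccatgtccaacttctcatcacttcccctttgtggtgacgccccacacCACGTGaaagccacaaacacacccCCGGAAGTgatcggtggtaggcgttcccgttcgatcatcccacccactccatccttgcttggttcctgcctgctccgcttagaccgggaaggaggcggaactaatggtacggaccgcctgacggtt
Nup107: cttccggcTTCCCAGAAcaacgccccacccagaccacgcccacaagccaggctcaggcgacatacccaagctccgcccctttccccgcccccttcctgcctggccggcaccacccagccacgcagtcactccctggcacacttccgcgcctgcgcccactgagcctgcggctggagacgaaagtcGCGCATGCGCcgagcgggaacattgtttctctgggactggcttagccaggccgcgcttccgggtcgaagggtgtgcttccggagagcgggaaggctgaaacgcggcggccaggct
The windows are chr14:55635635-55635934 (minus strand) for Ipo4, chr7:44815838-44816137 (plus strand) for Nup62, chr5:92435150-92435449 (minus strand) for Nup54 and chr10:117792656-117792955 (minus strand) for Nup107. Counting bases from 1 at the window's 5′ end, the Ipo4 window holds the ETS letters at 242 to 249 and the E-box at 265 to 270, just past the RefSeq start. In the GENCODE annotation Ipo4 reaches to 55635957, so by that annotation the whole window lies inside the gene. In the Nup54 window the E-box is at 151 to 156 and the ETS letters at 175 to 182. The NRF1 letters stand at 231 to 240 in the Nup62 window and at 186 to 195 in that of Nup107, whose window also has the STAT core at 9 to 17.

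The E-box letters were in windows of 7 of 35 members (20.0%), beside 8.09% of all 27025 genes in the table of promoters and 11.96% of the 8983 tested genes in it. Those members were Ipo4, Ipo7, Nup188, Nup54, Nup93, Tnpo2 and Xpot, of which all but Tnpo2 rose. Of all 35 members with a window, 25 rose, and a link between any motif and the rise was not tested. NRF1 letters were found for 4 of 35 members (11.4%), beside 1.07% of all 27025 genes in the table of promoters and 2.49% of the 8983 tested genes in it: Nup107, Nup50, Nup62 and Xpo5, of which Nup107 was not past the threshold. For ETS the count was 4 of 35 members (11.4%), beside 4.31% of all 27025 genes in the table of promoters and 9.66% of the 8983 tested genes in it. The STAT core was in the window of 1 of 35 members (2.86%), Nup107, beside 8.47% of tested genes. Members' windows held a median of 28.0 CG dinucleotides, beside 20.0 in those of tested genes. These are matches of letters in a window, not binding sites.

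The Y complex, the outer ring scaffold, showed 4 of 6 members higher (median 0.31; the sum of the 6 was 422 ± 10.6 CPM in GM-CSF libraries and 324 ± 24.4 CPM in control libraries). Nup160, in one arm of the Y, had 103, 109 and 89.4 CPM in GM-CSF libraries, against 51.5, 47.2 and 59.4 CPM in control libraries. Its libraries did not overlap and all GM-CSF values lay far above the controls (log2 fold change 0.94 ± 0.10, SE, edgeR adjusted p = 1.39e-05; chromosome 2, 90677215 to 90736328 on GRCm38, protein-coding like the other members placed here). Nup43, a small propeller protein in another arm, had 13.5, 16.5 and 18.0 CPM in GM-CSF libraries, against 10.6, 8.01 and 10.2 CPM in control libraries. Here too the groups were apart, with GM-CSF replicate 1 nearest the controls (log2 fold change 0.74 ± 0.16, SE, edgeR adjusted p = 0.00190). Nup85, the scaffold protein that Nup43 binds, rose by 0.32 ± 0.09 on the log2 scale, and Nup37, a partner of Nup160, by 0.30 ± 0.11 (edgeR adjusted p = 0.0374). The Nup37 call ended when any single library other than GM-CSF replicate 3 was left out (0.21 to 0.34), and with the replicate block (0.30).

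Nup107 and Nup133, which form the stem of the Y, did not pass. Nup107 had 98.8, 103 and 103 CPM in GM-CSF libraries, against 84.7, 87.6 and 103 CPM in control libraries, and control replicate 3 lay within the GM-CSF range (log2 fold change 0.16 ± 0.08, SE, edgeR adjusted p = 0.126). It passed without control replicate 3 (0.23, adjusted p = 0.0394). Nup133 was at 65.2 ± 3.71 CPM in GM-CSF and 57.7 ± 4.73 CPM in control libraries (log2 fold change 0.18 ± 0.09, adjusted p = 0.0798). The read ratio of Nup160 to Nup107, the highest and the lowest fold change of the complex, was 1.05, 1.05 and 0.868 in GM-CSF libraries, against 0.608, 0.539 and 0.575 in control libraries, so that the 2 transcripts of one complex stood in different proportions in the groups; the pair was picked by its values, and the ratio is given with no test.

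In the inner ring, 4 of 5 members rose (median 0.51). Nup35, which bends and binds membrane, had 17.0, 15.8 and 13.0 CPM in GM-CSF libraries, against 11.3, 8.52 and 8.32 CPM in control libraries. Its groups did not overlap, though GM-CSF replicate 3 and control replicate 1 came close (log2 fold change 0.70 ± 0.17, SE, edgeR adjusted p = 0.00386); a near copy, Gm4353, shares 1547 bases at 99.6% identity, and reads without a unique position are not counted. Nup188, a large scaffold protein, rose by 0.58 ± 0.14 on the log2 scale, Nup93, which links the inner ring to the channel, by 0.51 ± 0.08, and Nup205, the paralog of Nup188, by 0.31 ± 0.09. Nup155, the remaining scaffold protein, was at 33.4 ± 1.76 CPM in GM-CSF and 29.3 ± 1.59 CPM in control libraries, with no overlap in CPM but not past the threshold (log2 fold change 0.19 ± 0.09, adjusted p = 0.0978).

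The central channel trimer rose as a whole: all 3 of its members passed, and their sum was 386 ± 6.77 CPM in GM-CSF libraries and 206 ± 9.10 CPM in control libraries, the highest GM-CSF to control ratio of any group of 2 or more members (1.88). Nup62, its best known FG nucleoporin, had 238, 245 and 269 CPM in GM-CSF libraries, against 109, 119.7 and 127 CPM in control libraries. Among the members it had the highest level per length, at a mean CPM per kilobase of 87.9 in GM-CSF and 41.6 in control libraries. Sec13, a pore protein outside the symbol rule, was at 87.9 in GM-CSF and 76.1 in control libraries. The lowest GM-CSF library of Nup62 lay well above its highest control library (log2 fold change 1.09 ± 0.08, SE, edgeR adjusted p = 5.74e-07; chromosome 7, 44816088 to 44830812). The Nup62 locus overlaps Il4i1 on the same strand, which had 19 GM-CSF and 2 control reads in all, and the readthrough entry Nup62-il4i1 had 7 GM-CSF and 2 control reads. Nup54 had 76.4, 70.2 and 65.0 CPM in GM-CSF libraries, against 44.3, 37.5 and 40.8 CPM in control libraries. All 3 GM-CSF values were above all controls (log2 fold change 0.79 ± 0.10, SE, edgeR adjusted p = 3.88e-05); a near copy, Gm15790, shares 1254 bases at 98.0% identity. The third partner, Nupl1, now named Nup58, rose by 0.49 ± 0.09 on the log2 scale.

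Nup210, the large membrane-spanning nucleoporin of the lumenal ring, did not pass the threshold. It had 201, 228 and 191 CPM in GM-CSF libraries, against 198, 219 and 235 CPM in control libraries. The groups overlapped (log2 fold change -0.06 ± 0.08, SE, edgeR adjusted p = 0.516), and the estimate ranged from -0.18 to -0.0045 over the 14 alternatives. Its germline paralog Nup210l was near the limit of the filter, at 1.36 ± 0.189 CPM in GM-CSF and 1.62 ± 0.113 CPM in control libraries (log2 fold change -0.25 ± 0.30, adjusted p = 0.495). Pom121, a membrane nucleoporin outside the symbol rule, had 34.6, 54.0 and 66.1 CPM in GM-CSF libraries, against 18.7, 17.7 and 19.4 CPM in control libraries, with the GM-CSF libraries spread but all above the controls (log2 fold change 1.48 ± 0.19, SE, edgeR adjusted p = 4.66e-05). Ndc1, the membrane protein that anchors the inner ring, rose by 0.62 ± 0.10.

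On the cytoplasmic side 3 of 3 members rose. Nup88, which holds the cytoplasmic filaments, had 189.6, 179.7 and 197 CPM in GM-CSF libraries, against 116, 123 and 122 CPM in control libraries. Its libraries were tight within each group and did not overlap (log2 fold change 0.66 ± 0.07, SE, edgeR adjusted p = 1.19e-05). Its partner Nup214 rose by 0.35 ± 0.10 and Nupl2, now named Nup42 and part of the mRNA export platform, by 0.53 ± 0.13. In the nuclear basket both members rose. Nup153, the FG nucleoporin that recruits the basket, had 86.9, 85.1 and 61.2 CPM in GM-CSF libraries, against 39.8, 39.6 and 46.3 CPM in control libraries, with GM-CSF replicate 3 the lowest of its group yet above every control (log2 fold change 0.90 ± 0.13, SE, edgeR adjusted p = 1.17e-04). Nup50, which helps to release import cargo, rose by 0.47 ± 0.09 on the log2 scale. Nup98, whose transcript also encodes the Y complex scaffold Nup96 and which is found both at the pore and inside the nucleus, had 86.8, 86.8 and 72.9 CPM in GM-CSF libraries, against 45.1, 48.0 and 49.7 CPM in control libraries. Again no control library reached the lowest GM-CSF value (log2 fold change 0.80 ± 0.09, SE, edgeR adjusted p = 1.95e-05).

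**Figure D2:**
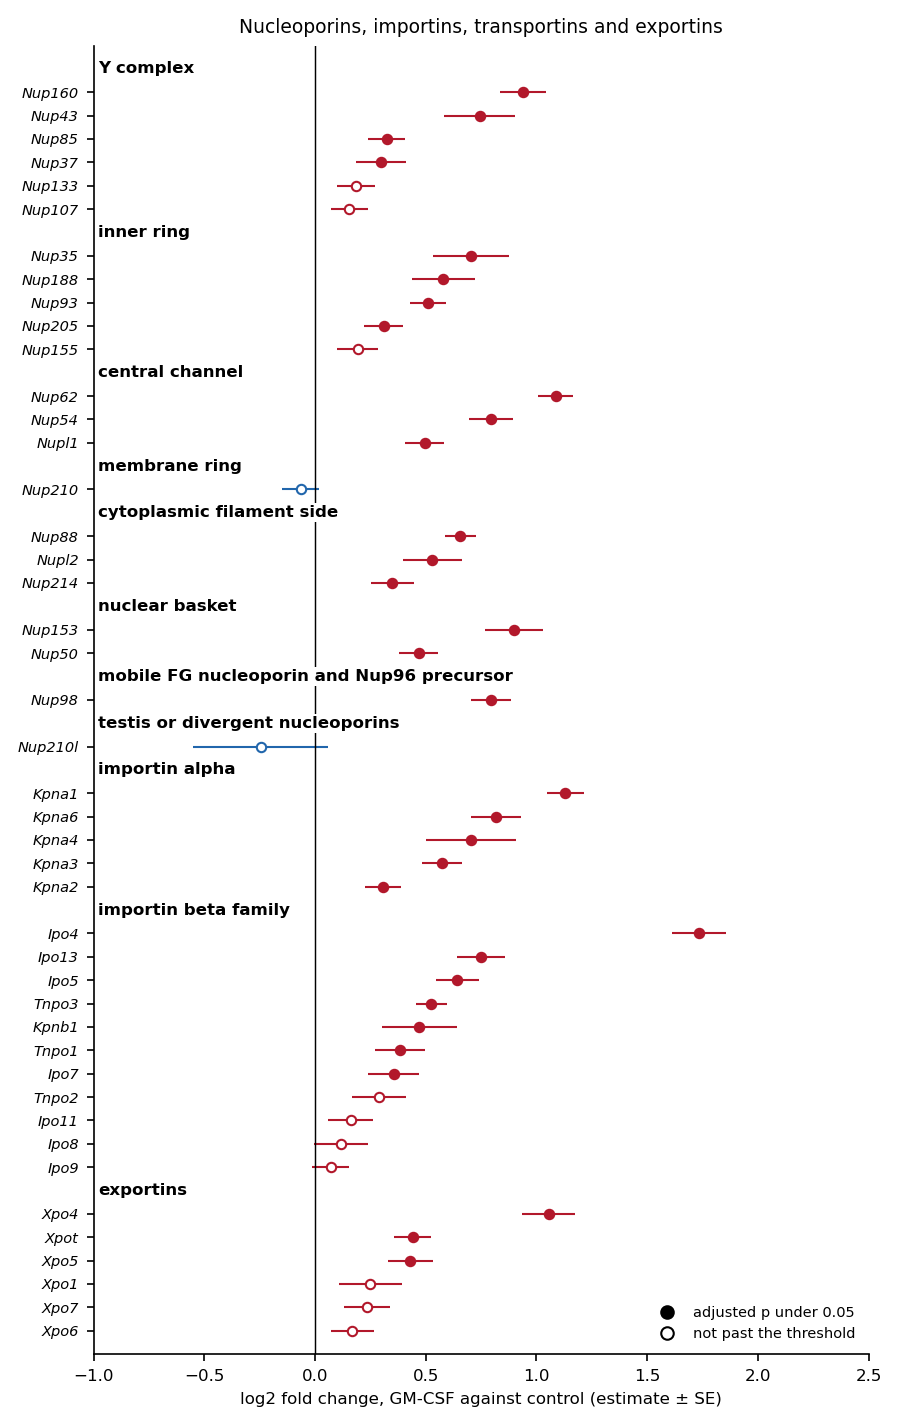
Log2 fold change of GM-CSF against control for the 44 tested members (x axis; point ± SE, 3 libraries per group), grouped by place in the pore or role in transport. Filled points passed an adjusted p of 0.05: 32 points, all to the right of 0, with Ipo4 farthest right at 1.73.

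All 5 tested importin alpha genes rose (median 0.70). Their proteins are adaptors: each binds a classical nuclear localization signal and is carried in by importin beta. Kpna1, a widely expressed adaptor, had 135, 131 and 118 CPM in GM-CSF libraries, against 57.8, 61.1 and 57.2 CPM in control libraries. Every GM-CSF library lay far above the control range (log2 fold change 1.13 ± 0.08, SE, edgeR adjusted p = 5.36e-07; chromosome 16, 35978750 to 36037131). Kpna6, its close paralog, had 32.1, 29.9 and 26.6 CPM in GM-CSF libraries, against 16.0, 16.7 and 17.9 CPM in control libraries, also with no overlap (log2 fold change 0.82 ± 0.11, SE, edgeR adjusted p = 8.69e-05). Kpna3, whose protein is known to carry NF-kB, rose by 0.58 ± 0.09 on the log2 scale. Kpna4, another NF-kB carrier, had 117, 117 and 69.5 CPM in GM-CSF libraries, against 77.7, 51.2 and 57.5 CPM in control libraries (log2 fold change 0.70 ± 0.20, SE, edgeR adjusted p = 0.0100). GM-CSF replicate 3 lay inside the control range, and the call ended without control replicate 2 (0.58, adjusted p = 0.0522) and was 0.92 without GM-CSF replicate 3.

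Kpna2, the importin alpha that is abundant in dividing cells, rose least, with 84.1, 90.5 and 85.4 CPM in GM-CSF libraries, against 72.6, 64.6 and 74.1 CPM in control libraries (log2 fold change 0.31 ± 0.08, SE, edgeR adjusted p = 0.00646; 0.19, adjusted p = 0.0614 with upper quartile scaling). Its groups did not overlap, with GM-CSF replicate 1 nearest the controls. In the same libraries 7 of 10 cell cycle genes fell, as given above, and a link to the level of Kpna2 was not tested. Of the importin alpha reads per kilobase of exon, Kpna2 made up 39.3% ± 2.57 in GM-CSF libraries and 47.4% ± 1.61 in control libraries (SD, n = 3 each). Kpna1 made up 19.6% ± 0.436 in GM-CSF libraries and 13.4% ± 1.42 in control libraries. The shares of Kpna3 (20.9% ± 0.921 in GM-CSF libraries and 20.9% ± 0.410 in control libraries) overlapped between the groups. These shares understate Kpna2 if its reads were lost to copies: Gm10184 shares 1968 bases at 99.9% identity and Gm10259 1590 bases at 99.8% identity. The read ratio of Kpna1 to Kpna2 was 1.60, 1.45 and 1.38 in GM-CSF libraries, against 0.797, 0.946 and 0.771 in control libraries, with no correction for length. This pair, the highest and the lowest fold change of the importin alpha genes, was also picked by its values. That choice favours groups that do not overlap, and the ratio is given with no test. Kpna7, an oocyte form, had 1 read over all 6 libraries and was not tested.

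**Figure D3:**
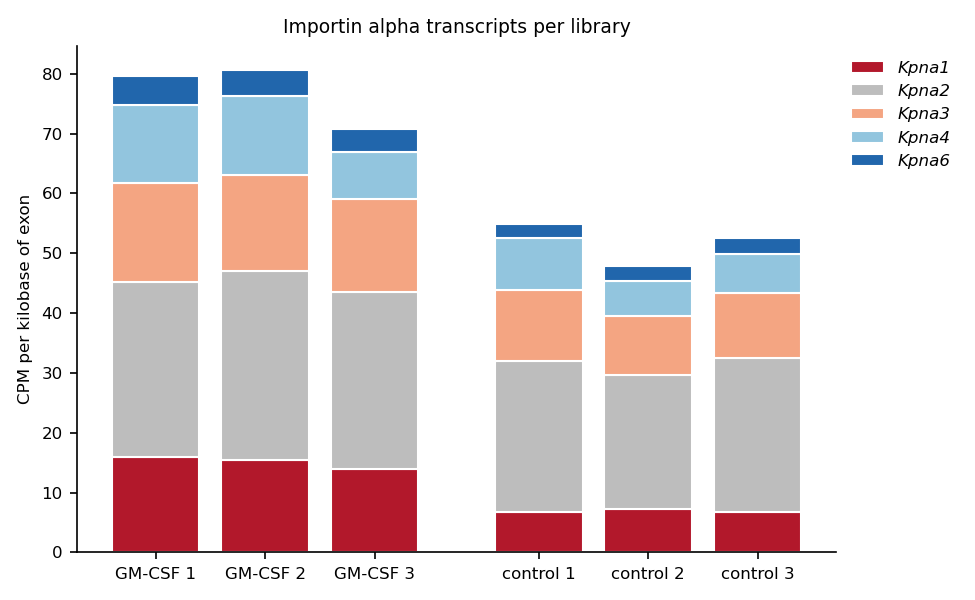
Importin alpha transcripts in each library as CPM per kilobase of exon (y axis), stacked by gene, for 3 GM-CSF and 3 control libraries (x axis). The Kpna1 segment is 13.9 to 15.9 in GM-CSF and 6.74 to 7.20 in control libraries, while the Kpna2 segment is 29.3 to 31.5 in GM-CSF and 22.5 to 25.8 in control libraries.

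Of the 11 genes of the importin beta family, which carry cargo directly or through an adaptor, 7 rose (median 0.38). Ipo4, an importin for histones and ribosomal proteins, showed the largest change of all members, with 38.2, 38.6 and 33.6 CPM in GM-CSF libraries, against 9.71, 12.1 and 11.5 CPM in control libraries. Every GM-CSF library was well above every control, with a fitted fold of 3.32 (log2 fold change 1.73 ± 0.12, SE, edgeR adjusted p = 4.44e-07; chromosome 14, 55625400 to 55635957), and the estimate stayed between 1.62 and 1.80 over the 14 alternatives. Its promoter window, like that of Nup54, holds both ETS and E-box letters. The annotated gene Gm49378, which spans parts of Ipo4 and of its neighbour Tm9sf1 on the same strand, shares 2310 bases with Ipo4 with no mismatch, and Tm9sf1 was at 116 ± 3.32 CPM in GM-CSF and 120.1 ± 8.42 CPM in control libraries. Ipo13, which works in both directions, had 51.7, 58.8 and 64.6 CPM in GM-CSF libraries, against 31.6, 38.4 and 34.7 CPM in control libraries, with no overlap (log2 fold change 0.75 ± 0.11, SE, edgeR adjusted p = 1.07e-04). Ipo5, an importin for ribosomal proteins, rose by 0.64 ± 0.10 on the log2 scale.

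Kpnb1, importin beta itself and the carrier of every importin alpha, had 94.2, 90.1 and 54.9 CPM in GM-CSF libraries, against 61.1, 57.6 and 54.4 CPM in control libraries. GM-CSF replicates 1 and 2 were high, while replicate 3 lay among the controls (log2 fold change 0.47 ± 0.17, SE, edgeR adjusted p = 0.0308). That call was not stable: it ended without any 1 of the 3 controls or of GM-CSF replicates 1 and 2 (0.32 without GM-CSF replicate 1), with limma-voom (0.42) and with upper quartile scaling (0.35), and the value was 0.69 without GM-CSF replicate 3. Ipo7, another importin for ribosomal proteins, had 49.3, 38.9 and 40.4 CPM in GM-CSF libraries, against 32.2, 36.7 and 32.2 CPM in control libraries, with the lowest GM-CSF and the highest control library close together (log2 fold change 0.36 ± 0.12, SE, edgeR adjusted p = 0.0202); its call ended without GM-CSF replicate 1 (0.23), control replicate 1 (0.33) or control replicate 3 (0.31). Of the transportins, Tnpo3, which imports serine/arginine-rich splicing factors, rose by 0.52 ± 0.07 and Tnpo1, which imports RNA-binding proteins such as hnRNPs, by 0.38 ± 0.11 (0.32 and not called without control replicate 2). Tnpo3 overlaps Irf5 on the opposite strand, which itself rose to 1624 CPM in GM-CSF libraries, against 815 CPM in control libraries; whether counting used strand is not given in the sources used here. Tnpo2, the homolog of Tnpo1, missed the threshold at 0.29 ± 0.12 (adjusted p = 0.0542; 0.40, adjusted p = 0.00411 without GM-CSF replicate 3).

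Ipo8, Ipo9 and Ipo11 did not pass the threshold. Ipo11, an importin of a ubiquitin-conjugating enzyme, was at 25.5 ± 0.947 CPM in GM-CSF and 23.0 ± 0.440 CPM in control libraries (log2 fold change 0.16 ± 0.10, adjusted p = 0.183). For Ipo8, which carries SMAD proteins, the estimate was 0.12 ± 0.12 (adjusted p = 0.416). Ipo9, a histone importin, was at 77.2 ± 5.68 CPM in GM-CSF and 73.9 ± 4.35 CPM in control libraries (log2 fold change 0.07 ± 0.08, adjusted p = 0.469), and its sign turned with upper quartile scaling (-0.05). Set beside each other, Ipo4 reads were 0.540, 0.473 and 0.426 in GM-CSF libraries, against 0.141, 0.161 and 0.149 in control libraries per read of Ipo9, the family's lowest fold change; again the pair was picked by its values.

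Exportins were mixed, with 3 of 6 higher (median 0.34). Xpo4, which exports a translation factor and SMAD proteins, had 29.4, 26.9 and 29.3 CPM in GM-CSF libraries, against 12.3, 15.1 and 14.1 CPM in control libraries. No control library came near the GM-CSF range, and the fitted fold was 2.08 (log2 fold change 1.06 ± 0.12, SE, edgeR adjusted p = 1.73e-05); a near copy, Gm17873, shares 576 bases at 99.1% identity. Xpot, the tRNA exporter, rose by 0.44 ± 0.08 and Xpo5, the exporter of microRNA precursors, by 0.43 ± 0.10 on the log2 scale. Xpo1, or CRM1, the general exporter of proteins with leucine-rich signals and of ribosomal subunits, had 136, 155 and 95.8 CPM in GM-CSF libraries, against 111, 104 and 112 CPM in control libraries. GM-CSF replicates 1 and 2 were above the controls and replicate 3 was below them (log2 fold change 0.25 ± 0.14, SE, edgeR adjusted p = 0.141), and without replicate 3 it passed (0.43, adjusted p = 4.44e-04). Xpo7, an exportin with broad cargo, was at a log2 fold change of 0.23 ± 0.10 (adjusted p = 0.0686; 0.35, adjusted p = 0.00175 without GM-CSF replicate 3). Xpo6, which exports actin bound to profilin, was at 115 ± 6.58 CPM in GM-CSF and 103 ± 13.7 CPM in control libraries (log2 fold change 0.17 ± 0.10, adjusted p = 0.147; 0.26, adjusted p = 0.0456 without control replicate 2).

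**Figure D4:**
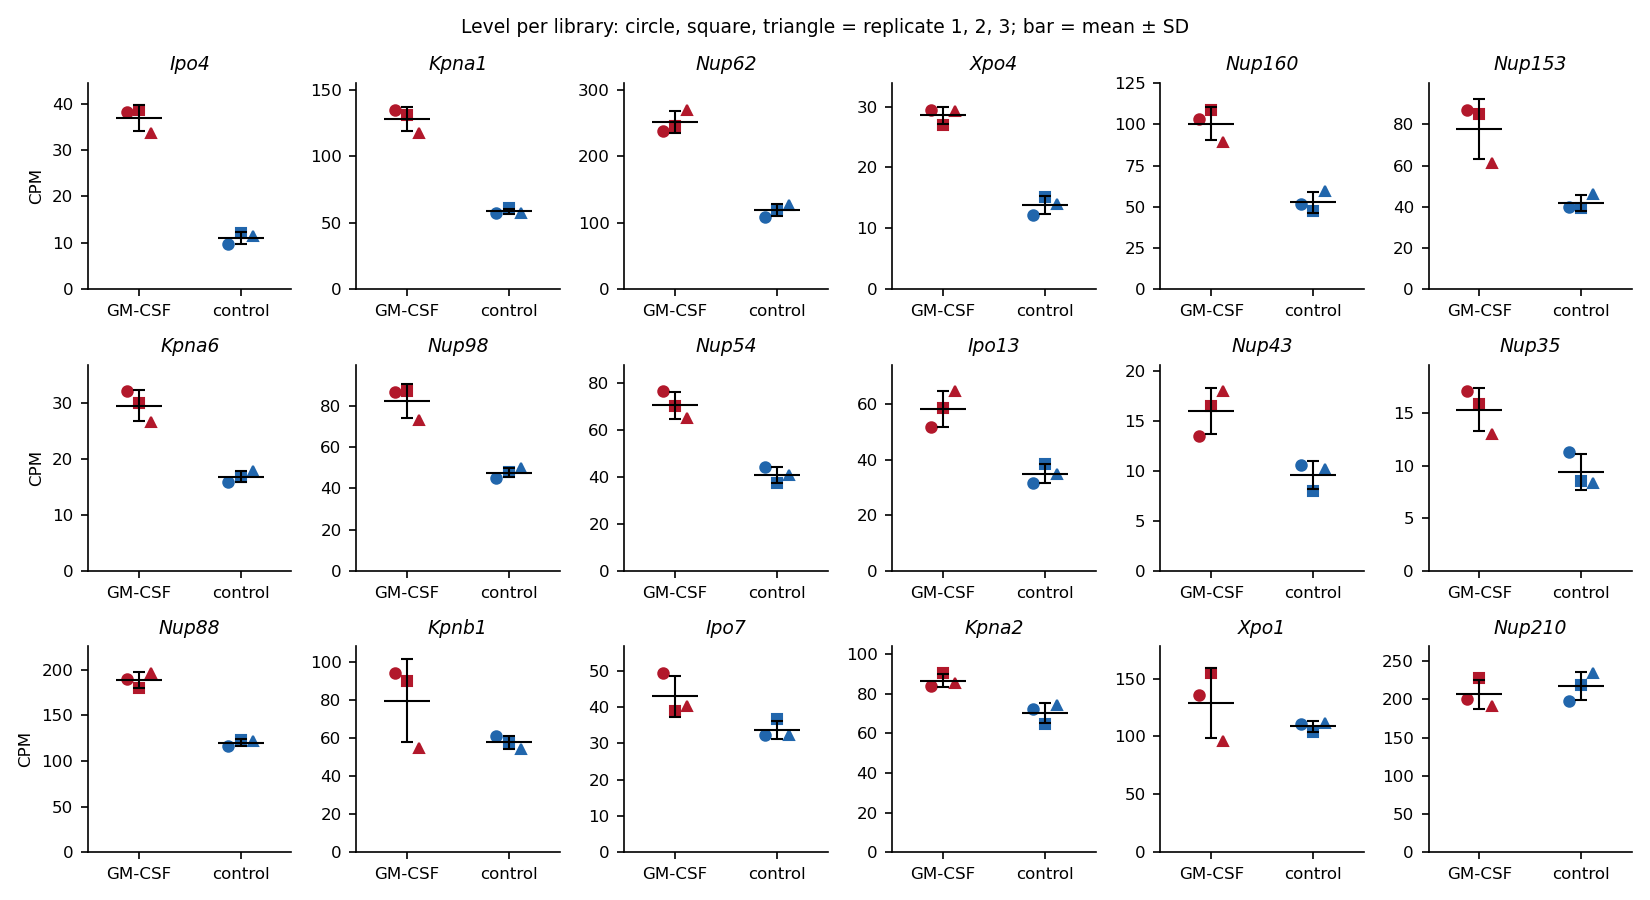
CPM per library (y axes, from 0) for 18 members in GM-CSF and control libraries, with the mean ± SD of 3 libraries. Groups are apart in the 2 upper rows of panels, while for Kpnb1 and Xpo1 GM-CSF replicate 3 (triangle) sits at or below the controls, at 54.9 and 95.8 CPM, and for Nup210 the groups overlap.

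GM-CSF replicate 3 was often the lowest of its group for these genes. In 29 of 44 tested members it lay below both other GM-CSF libraries, and in 7 above both, while among all tested genes 38.9% lay below and 38.1% above. Without it, 35 of 44 tested members rose and 0 fell (median 0.54). Calls over all tested genes then also grew in number, to 7739 from 7511. Of these, 3971 were higher and 3768 lower (median of all genes -0.0013), beside 3851 and 3660 with every library.

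Genes of the same pathway that the symbol rule does not reach also rose in most cases. Of 25 transport partners and further pore proteins, all tested, 17 (68.0%) rose and 0 fell (median 0.51). Among all tested genes 32.8% rose and 31.2% fell. The partner list was chosen with earlier results of these data known. Ran, the GTPase that powers transport, had 373, 364 and 309 CPM in GM-CSF libraries, against 252, 220.5 and 254 CPM in control libraries, with all GM-CSF libraries higher (log2 fold change 0.53 ± 0.09, SE, edgeR adjusted p = 3.65e-04). Rcc1, its nuclear exchange factor, had 169.7, 168 and 193 CPM in GM-CSF libraries, against 81.4, 82.5 and 98.5 CPM in control libraries. Those groups were well apart (log2 fold change 1.02 ± 0.09, SE, edgeR adjusted p = 2.85e-06). Rangap1, which triggers GTP hydrolysis in the cytoplasm, had 189.6, 179.8 and 180.1 CPM in GM-CSF libraries, against 158, 143 and 163 CPM in control libraries, a smaller separation (log2 fold change 0.25 ± 0.07, SE, edgeR adjusted p = 0.0122), and was not called without control replicate 2 (0.20) or with upper quartile scaling (0.13). Cse1l, the exporter that returns importin alpha to the cytoplasm, had 143, 138 and 126 CPM in GM-CSF libraries, against 91.7, 94.8 and 100.3 CPM in control libraries, with no overlap (log2 fold change 0.51 ± 0.08, SE, edgeR adjusted p = 1.47e-04). Nutf2, the import factor of Ran, was low, with 7.15, 8.59 and 7.08 CPM in GM-CSF libraries, against 6.04, 5.11 and 5.92 CPM in control libraries, and its call (0.42 ± 0.17, adjusted p = 0.0466) ended under 10 of 14 alternatives.

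Among the pore proteins of this list, Ranbp2, the filament protein that binds Ran and RanGAP1, had 64.5, 64.1 and 49.4 CPM in GM-CSF libraries, against 28.7, 32.1 and 30.1 CPM in control libraries, with no overlap (log2 fold change 0.97 ± 0.11, SE, edgeR adjusted p = 2.37e-05). The Y complex subunit Seh1l rose by 1.12 ± 0.07 and Ahctf1, also known as ELYS, which starts pore assembly on chromatin, by 1.19 ± 0.14. The basket protein Tpr had 139, 140.3 and 125 CPM in GM-CSF libraries, against 130.5, 129 and 134 CPM in control libraries. Its groups overlapped (log2 fold change 0.05 ± 0.07, SE, edgeR adjusted p = 0.572), and the sign turned with upper quartile scaling (-0.07). Gle1 and Aaas, on the cytoplasmic side, and Ranbp6 did not pass, and Gle1 and Ranbp6 changed sign under at least 1 alternative. The largest estimate was that of Ranbp17, a relative of Xpo7, at a low level, with 0.834, 0.481 and 0.559 CPM in GM-CSF libraries, against 0.125, 0.357 and 0.0481 CPM in control libraries (log2 fold change 1.74 ± 0.64, adjusted p = 0.0348). It was 2.73 without control replicate 2, and its call ended under 6 of the 12 alternatives that tested it.

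Of 24 mRNA export genes, 16 rose and 1 fell (median 0.29; 10 and 1 with upper quartile scaling). Nxf1, the main mRNA export receptor, had 204, 194 and 204 CPM in GM-CSF libraries, against 140.0, 146 and 139 CPM in control libraries, with no overlap (log2 fold change 0.51 ± 0.07, SE, edgeR adjusted p = 6.76e-05). The largest rises were in Zc3h11a, an RNA-binding protein of the export machinery, with 136, 130.2 and 132 CPM in GM-CSF libraries, against 61.7, 61.3 and 59.8 CPM in control libraries (log2 fold change 1.13 ± 0.07, SE, edgeR adjusted p = 2.18e-07), and in Thoc1, a subunit of the THO complex, with 67.2, 64.2 and 55.8 CPM in GM-CSF libraries, against 31.4, 28.4 and 28.1 CPM in control libraries (log2 fold change 1.09 ± 0.10, SE, edgeR adjusted p = 4.14e-06). For both, each GM-CSF library lay above every control. Alyref2, a paralog of the export adaptor gene Alyref, was the 1 gene of the list that fell, with 11.1, 10.8 and 12.5 CPM in GM-CSF libraries, against 17.0, 16.8 and 17.6 CPM in control libraries (log2 fold change -0.57 ± 0.12, SE, edgeR adjusted p = 0.00191), while Alyref rose by 0.86 ± 0.16. Of the other THO subunits, Thoc3 rose by 0.34 ± 0.09 and Thoc2 by 0.27 ± 0.08 on the log2 scale (0.15 for Thoc2 and not past the threshold with upper quartile scaling), and Thoc5, Thoc6 and Thoc7 did not pass.

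**Figure D5:**
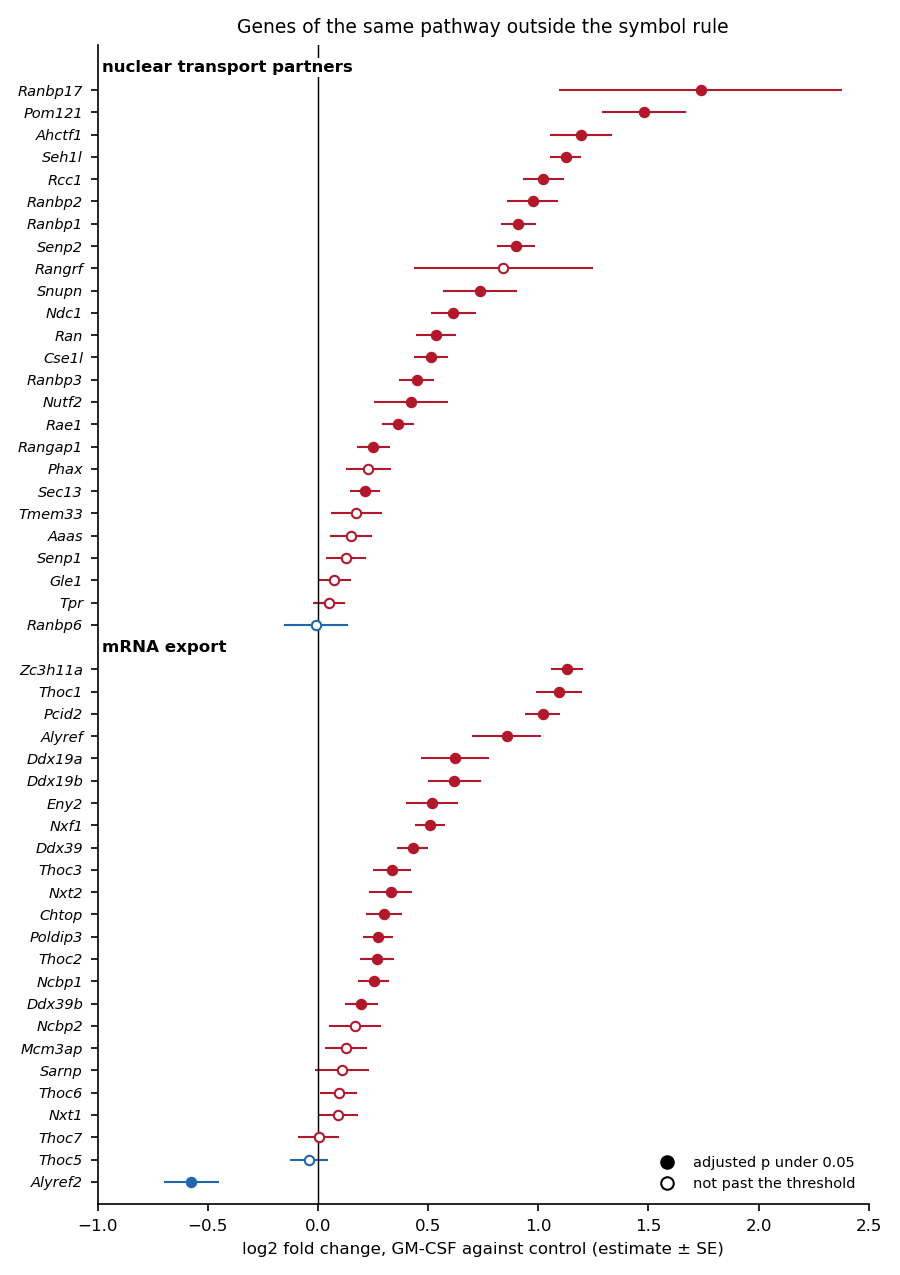
Log2 fold change of GM-CSF against control (x axis; point ± SE, 3 libraries per group) for 25 transport partners and 24 mRNA export genes. Filled points passed an adjusted p of 0.05; all of these lie right of 0 except Alyref2 at -0.57.

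Of 47 members, 3 were not tested for lack of reads. Kpna7 and Nup62cl each had 1 GM-CSF read and 0 control reads, and Nup62-il4i1 had 7 GM-CSF and 2 control reads over 3 libraries each. The 5 members with the highest mean level per kilobase of exon in control libraries were Nup62, Kpna2, Nup107, Nup85 and Nup210, at 41.6, 24.5, 23.9, 23.6 and 20.7 CPM per kilobase; Nup107, Nup85, Kpna2 and Nup210 are too close to order beyond the spread of their libraries and the choice of exon length. In GM-CSF libraries Nup62 again led, at 87.9, with Kpna2 at 30.2.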

How the data were processed

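RNA from 3 GM-CSF and 3 control monocyte samples was sequenced as poly(A) libraries. The deposited values are whole-number read counts per gene, which the authors made from aligned reads; HTSeq 0.6.1p1, STAR 2.5.2a, Trim Galore 0.4.4, edgeR and the build mm10 are listed, without their roles, per the submitters' processing notes. Of each library, 69.4% to 71.2% of counted reads were in genes, 18.0% to 19.6% not uniquely placed and 1.44% to 1.53% ambiguous; library sizes used gene rows only. Counts were filtered with filterByExpr (minimum count 10, total 15), leaving 11731 genes, scaled by TMM and tested with edgeR 4.0.16 (R 4.3.3), a quasi-likelihood test of the 6 samples with no covariate and Benjamini-Hochberg adjustment. CPM are counts per 1000000 reads in genes. The computation was tested on simulated data. Alternatives were other scalings and filters, DESeq2 1.42.0, limma-voom (limma 3.58.1), a replicate block and leaving out each library.

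The members and lists were chosen with earlier results of these data known. Values in every library are given for the 12 members with the largest change past the threshold (mean log2 CPM 3 or more), the largest in each role, 8 members named in any case, 8 named partners and the 2 largest changes of each partner list. Kpna4, Nup107 and Alyref2 were added after their values were seen, as were the promoter motifs. Exon lengths, positions and overlaps come from GENCODE M21 (GRCm38), in which 46 of 47 members matched; near copies are blastn matches of at least 150 bases at 97% identity.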

Additional observations from a re-analysis of the deposited data

How the results depend on the processing

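Over 14 alternatives, 23 of the 32 risen members kept the call in all. Of the rest, 9 lost it in at least 1, and 5 of the 12 members not called gained one. These changes are given above, beside the gene or in the list for upper quartile scaling. No member was called lower under any of them. Members called higher numbered 24 with upper quartile scaling, 31 with limma-voom, 32 with DESeq2 and 29 to 35 with 1 library left out. Upper quartile scaling moved the members' median to 0.35, the changed mRNA export genes to 11, the higher ones to 10, Ipo9 to a log2 fold change of -0.047 and Tpr to one of -0.068, and the higher share of all calls was then 43.0%, beside 51.3%; it moved the median of all genes by a like amount. Among genes of the lists near no change, upper quartile scaling also turned Gle1 (-0.043) and Thoc6 (-0.023). Thoc7 was at -0.11 with it, -0.0040 with DESeq2 size factors, -0.0038 with library size alone, -0.0083 with no filter, -0.0037 with the 1 CPM filter and -0.0041 with DESeq2. With 1 library left out, Thoc7 ranged from -0.062 to 0.064, Thoc5 from -0.078 to 0.0097 and Ranbp6 from -0.099 to 0.12. Replicate numbers shared by GM-CSF and control samples showed no clear pairing: deviations of same-numbered samples correlated at 0.108, 0.0154 and 0.0144. For 1 of 3 numbers the GM-CSF sample correlated best with its own number. With 3 libraries a group such correlations cannot exclude pairing. With the replicate block, 31 members and 7493 of all genes were called. At 3 libraries a group an exact permutation test of 1 gene cannot go below p = 0.1, so single-gene calls rest on the spread shared across genes.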
